A study of Homo sapiens with 6 samples.

Results

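The transcripts of 10 genes of the Notch pathway were followed in hiPSC aggregates, namely the receptors NOTCH1, NOTCH2 and NOTCH3, the ligands DLL1, DLL3 and JAG1, the glycosyltransferase LFNG, and the transcriptional repressors HES1, HES5 and HEY1. They were taken by symbol, as the rows of the count files whose Ensembl identifier carries one of these names in GENCODE 44. All 10 were found, each as 1 row, among the 19977 genes of the files, and all 10 had at least 10 counts in total, as did 16505 genes. The cells were wild-type NCRM-1, a human induced pluripotent stem cell line, seeded as single cells and grown as aggregates in vertical wheel bioreactors for 4 days, with 50% of the medium replaced on day 2. The 3 libraries called PEG and HS came from E8, a defined medium for pluripotent stem cells, with 10 mg/ml polyethylene glycol (PEG) and 0.1 µg/ml heparin sodium salt (HS), and the 3 libraries called E8 control came from E8 alone. The free-text treatment field of the labels describes PEG and heparin for all 6 libraries, so the groups rest on the treatment named for each library. The labels speak of 1 treated and 1 control bioreactor, so that medium and vessel cannot be told apart, and the p-values measure only the spread between these samples, which may be technical.

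Notch is a receptor that is also its own messenger. A ligand on a neighbouring cell pulls on it, ADAM proteases and then gamma-secretase cut it, and the freed intracellular part enters the nucleus, where it joins RBPJ and a MAML coactivator and switches on genes of the HES and HEY family, which are repressors. In the early neural plate and in neural progenitors this exchange is known for holding some cells undifferentiated while their neighbours become neurons. Fringe enzymes such as LFNG add a sugar to the receptor and so change which ligands it answers to.

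Of the 10 genes, 7 passed the test between media, 1 higher and 6 lower in PEG and HS. Over all genes tested, 25.3% passed in either direction, 12.2% higher and 13.1% lower, by edgeR's quasi-likelihood test at a Benjamini-Hochberg adjusted p under 0.05. LFNG fell by 35.8%, JAG1 by 26.8% and DLL1 by 24.6%, NOTCH3 and NOTCH2 fell slightly, HES5 fell from an already very low level, and NOTCH1 rose slightly. For DLL3, HES1 and HEY1 no difference was called. The median log2 fold change of the 10 genes was -0.13, against 0.0031 over all genes tested, and their median absolute log2 fold change was 0.29 against 0.12. The 10 genes were chosen with earlier results of these data known, so these figures describe the list and do not test it. In 8 of the 10 genes no library of one medium fell within the range of the other in CPM (read counts scaled to a common library size, from edgeR with TMM factors), as held for 39.3% of all genes tested. HES5 alone passed with an absolute log2 fold change over 1, which 2.02% of all genes tested did. RNA was measured in bulk, so fewer cells that carry a transcript and less of it per cell cannot be told apart. The library totals lay between 26991279 and 36185138 counts, with overlapping ranges in the 2 media, and the spread between replicates was small (common biological coefficient of variation 3.12%).

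**Figure D1:**
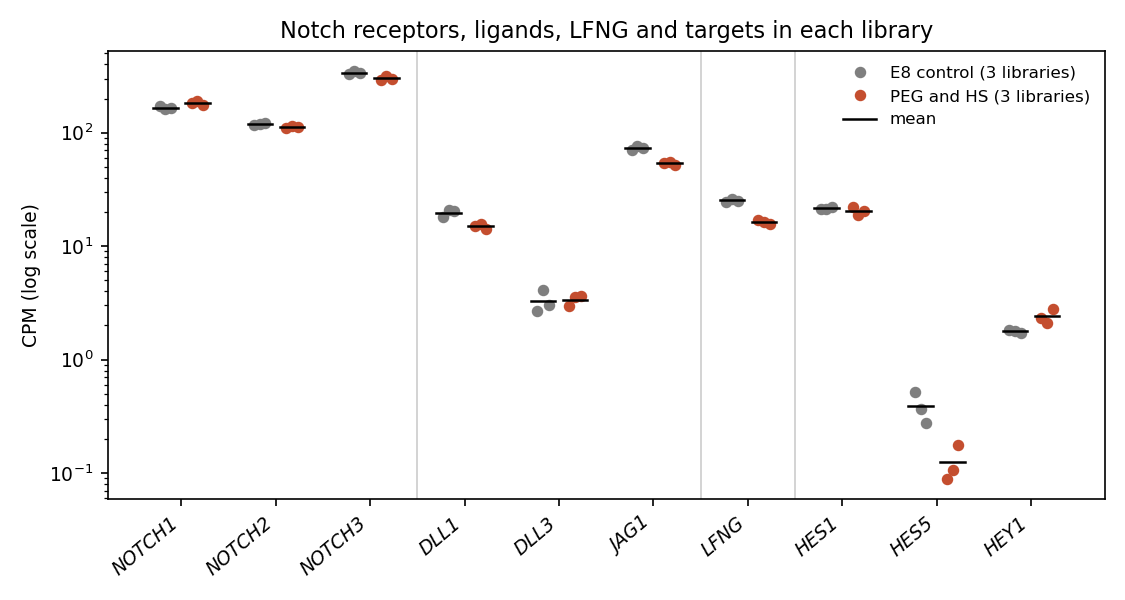
CPM of the 10 Notch genes in each library, on a log axis, with E8 control in grey, PEG and HS in orange and the mean of 3 libraries as a black bar. LFNG, JAG1 and DLL1 lie lower in every PEG and HS library, NOTCH1 and HEY1 lie higher, and DLL3 and HES1 overlap.

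**Figure D2:**
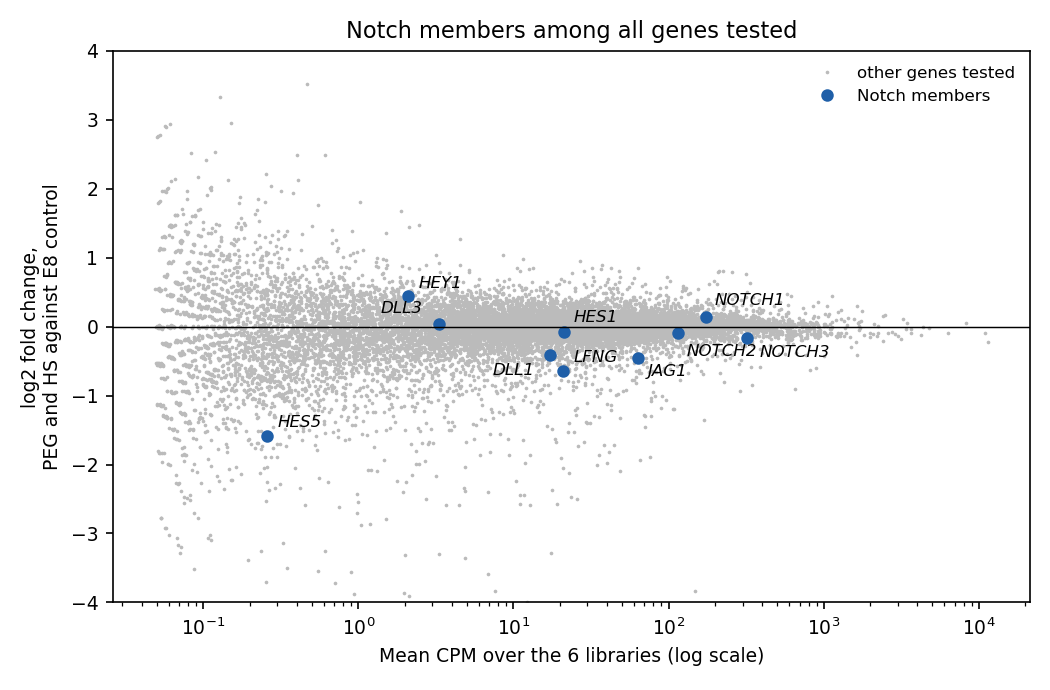
Log2 fold change of PEG and HS against E8 control, plotted against mean CPM over the 6 libraries (log axis) for all genes tested in grey and the 10 Notch genes in blue. The vertical axis ends at 4 in either direction and leaves out 49 genes beyond it. The receptors sit among well-counted genes near 0, while HES5 sits among genes with few counts, where the scatter is wide.

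The receptors did not move together, as NOTCH1 rose while NOTCH3 and NOTCH2 fell, each by a small step. NOTCH1 (ENSG00000148400, chromosome 9, 136494433 to 136546048 of GRCh38, minus strand) had 181.21, 188.80 and 176.97 CPM with PEG and HS, against 171.43, 162.15 and 163.67 CPM in E8 alone. The 3 treated libraries all lay above the 3 controls. The rise was 10.0% (log2 fold change 0.14, SE 0.032, adjusted p = 0.00539, edgeR). NOTCH3 (ENSG00000074181, chromosome 19, 15159038 to 15200995, minus strand), which is known best from vascular smooth muscle but is also expressed in neural progenitors, went the other way. It had 293, 315 and 298 CPM with PEG and HS, against 331, 349 and 336 CPM in E8 alone. Its libraries did not overlap either, and it fell by 10.9% (log2 fold change -0.17, SE 0.032, adjusted p = 0.00117).

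NOTCH2 (ENSG00000134250, chromosome 1, 119911553 to 120100779, minus strand) had 110.1, 114 and 113 CPM with PEG and HS, against 116, 120.1 and 122 CPM in E8 alone. The lowest E8 control library lay just above the highest PEG and HS library. NOTCH2 fell by 6.07%, which passed narrowly (log2 fold change -0.090, SE 0.031, adjusted p = 0.0449, edgeR). The call was lost with any 1 PEG and HS library left out and without E8 control replicate 2 or 3 (adjusted p between 0.0520 and 0.160), and also with DESeq2 (0.0612) or with library size alone as the scale (0.0635), while the log2 fold change stayed between -0.11 and -0.073. NOTCH2 shares 10.7% of its 31-base transcript words with other genes, most with the partial copy NOTCH2NLC, and with the counts of the partial copies added its log2 fold change was -0.091 (adjusted p = 0.0438). NOTCH4, a receptor known mainly from endothelium, had 1.75 to 2.37 CPM with PEG and HS, against 1.39 to 1.66 CPM in E8 alone, and the difference was not called (adjusted p = 0.121). Its exons overlap GPSM3 on the same strand, and it shares 4.51% of its 31-base transcript words with other genes, most with GPSM3.

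Among the canonical ligands, which are membrane proteins that engage the receptor from the adjacent cell, the 2 most abundant fell and the others were not called. JAG1 (ENSG00000101384, chromosome 20, 10637684 to 10673999, minus strand) had 53.6, 54.7 and 52.4 CPM with PEG and HS, against 69.7, 76.8 and 72.7 CPM in E8 alone. The 2 media were well separated. JAG1 was 1.37-fold lower with the additives (log2 fold change -0.45, SE 0.040, adjusted p = 5.96e-07, edgeR). DLL1 (ENSG00000198719, chromosome 6, 170282206 to 170306565, minus strand), the Delta ligand that marks nascent neurons and presomitic mesoderm, had 14.9, 15.7 and 14.2 CPM with PEG and HS, against 18.0, 20.7 and 20.4 CPM in E8 alone. Every E8 control library was above every PEG and HS library. DLL1 was 1.33-fold lower (log2 fold change -0.41, SE 0.067, adjusted p = 0.000314). Exons of DLL1 overlap the antisense gene FAM120B, and those of JAG1 an antisense gene, ENSG00000270792. The libraries were stranded, but the strand setting of the counting is not given in the sources used here.

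DLL3 (ENSG00000090932, chromosome 19, 39498895 to 39508481, plus strand) is a divergent Delta protein, known for acting inside the cell against Notch rather than as an activating ligand. It had 2.97, 3.54 and 3.60 CPM with PEG and HS, against 2.67, 4.06 and 3.02 CPM in E8 alone. The E8 control libraries spanned the PEG and HS libraries. The log2 fold change was 0.044 with a 95% interval from -0.30 to 0.38 (adjusted p = 0.880, edgeR), so changes of the size seen in LFNG lay outside the interval in either direction. Of the ligands that were not among the 10 genes, JAG2 had 9.51 to 11.2 CPM with PEG and HS, against 10.1 to 11.4 CPM in E8 alone (log2 fold change -0.017, 95% interval -0.19 to 0.15). DLL4, the endothelial Delta ligand, had 0, 0 and 5 counts with PEG and HS, against 6, 8 and 2 counts in E8 alone. No difference was called from these few counts (adjusted p = 0.246), although the adjusted p was 0.0295 without PEG and HS replicate 3, the only PEG and HS library with a count.

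LFNG (ENSG00000106003, chromosome 7, 2512529 to 2529177, plus strand) showed the largest relative change of the genes over 1 CPM among the 10. Its enzyme extends O-fucose on the receptor, which is known to favour Delta over Jagged ligands. It had 17.1, 16.2 and 15.5 CPM with PEG and HS, against 24.7, 26.0 and 25.2 CPM in E8 alone. The 3 libraries of each medium lay close together, and the gap between media was many times wider than the spread. LFNG was 1.56-fold lower with the additives (log2 fold change -0.64, SE 0.055, adjusted p = 4.94e-07, edgeR) and its log2 fold change lay between -0.68 and -0.60 under all of the 15 alternatives tried. The other fringes were not called, with a log2 fold change of 0.13 for MFNG (95% interval -0.19 to 0.45) and -0.033 for RFNG (95% interval -0.14 to 0.068). Whether LFNG differed from them in its response was not tested.

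The genes outside the pathway whose levels ran closest to LFNG over the 6 libraries were CNMD, TRPM3, HSPB8, HEG1 and ZNF185. Closeness was the root mean square difference of log2 CPM after each gene was centred on its own mean, over 13630 genes compared, and it was 0.019 for CNMD and 0.037 for ZNF185. All 5 were lower in PEG and HS, with log2 fold changes from -0.65 in HEG1 to -0.62 in ZNF185. With 6 libraries in 2 media, a like fold change alone brings 2 such profiles close.

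The target genes are shown with their promoters, since HES1 and HES5 are the textbook targets of RBPJ and were measured at very different levels. The window runs from 250 bases before to 50 bases after the annotated start, as RefSeq gives it for GRCh38.p14. Capitals mark the core of the RBPJ binding motif, GTGGGAA or its reverse TTCCCAC, searched on both strands. HES1 lies on the plus strand (chr3:194135898-194136197), HES5 on the minus strand (chr1:2530214-2530513) and HES4, a further family member chosen for printing after its values were seen, on the minus strand (chr1:1000048-1000347).
HES1: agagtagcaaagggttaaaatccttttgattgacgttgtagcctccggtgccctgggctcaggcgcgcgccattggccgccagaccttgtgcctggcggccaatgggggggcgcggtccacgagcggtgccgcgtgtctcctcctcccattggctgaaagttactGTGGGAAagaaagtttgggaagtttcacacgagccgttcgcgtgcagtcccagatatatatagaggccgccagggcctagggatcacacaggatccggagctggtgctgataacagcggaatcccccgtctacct
HES5: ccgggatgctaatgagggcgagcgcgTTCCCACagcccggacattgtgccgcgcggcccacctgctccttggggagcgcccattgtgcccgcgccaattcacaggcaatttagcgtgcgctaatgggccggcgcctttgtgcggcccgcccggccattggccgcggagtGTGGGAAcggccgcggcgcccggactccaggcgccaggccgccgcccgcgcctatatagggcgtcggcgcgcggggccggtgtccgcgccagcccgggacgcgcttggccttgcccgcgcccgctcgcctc
HES4: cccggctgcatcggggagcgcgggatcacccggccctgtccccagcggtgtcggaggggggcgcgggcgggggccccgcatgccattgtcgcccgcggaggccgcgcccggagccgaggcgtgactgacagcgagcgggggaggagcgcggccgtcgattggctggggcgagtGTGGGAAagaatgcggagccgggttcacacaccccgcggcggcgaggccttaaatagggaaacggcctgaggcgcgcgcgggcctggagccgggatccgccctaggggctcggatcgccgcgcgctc
The core began 85 bases before the start in HES1, 224 and 81 bases before it in HES5, and 77 bases before it in HES4. Of the 10 genes, 7 had a promoter in the reference table, and 2 of these, HES1 and HES5, held the core, as did 3 of the 8 other family members and targets examined (HES4, HEY2 and HEYL). In the same window 6.25% of 35116 promoters held it. The N box CACNAG, which HES proteins bind, occurred in 4 of the 7 windows, against 38% of all promoters, and the E box CACGTG in none of them, against 7.26%, both searched on both strands. A match describes letters in this window and says nothing of binding in these cells.

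HES1 (ENSG00000114315, chromosome 3, 194136148 to 194138732, plus strand), the main Notch-induced repressor, had 22.2, 18.8 and 20.2 CPM with PEG and HS, against 21.3, 21.4 and 22.3 CPM in E8 alone. The highest PEG and HS library lay inside the E8 control range and the other two lay under it. The log2 fold change was -0.086 with a 95% interval from -0.22 to 0.047 (adjusted p = 0.357, edgeR). HES5 (ENSG00000197921, chromosome 1, 2528745 to 2530263, minus strand), the repressor most typical of neural progenitors, had 3, 3 and 6 counts with PEG and HS, against 14, 12 and 10 counts in E8 alone, or 0.124 ± 0.0468 and 0.388 ± 0.122 CPM (SD, n = 3). No PEG and HS library reached the lowest E8 control library, but all 6 had few counts. HES5 fell by 1.58 on the log2 scale (SE 0.51, 95% interval -2.67 to -0.49, adjusted p = 0.0331). Without PEG and HS replicate 1 or 2, or E8 control replicate 1 or 2, the adjusted p was between 0.0667 and 0.117.

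HEY1 (ENSG00000164683, chromosome 8, 79762371 to 79767857, minus strand), a repressor of the related HEY group, had 2.31, 2.09 and 2.81 CPM with PEG and HS, against 1.82, 1.79 and 1.72 CPM in E8 alone. All PEG and HS libraries lay above all E8 control libraries, in the direction opposite to HES5. The log2 fold change of 0.44 (SE 0.17, unadjusted 95% interval 0.077 to 0.81) did not pass after adjustment (adjusted p = 0.0732, edgeR), and it passed under none of the 15 alternatives tried.

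The HES and HEY family with NRARP, a feedback inhibitor that Notch induces, split in both directions. Of these 11 genes, HES1, HES5 and HEY1 included, 2 rose, 3 fell and 6 were not called. The called share was 45.5%, against 25.3% of all genes tested. HES4 had 0.979, 0.708 and 1.12 CPM with PEG and HS, against 3.37, 4.28 and 3.63 CPM in E8 alone. The media were far apart, and HES4 fell by 1.99 on the log2 scale (SE 0.19, adjusted p = 1.27e-06, edgeR), the only called gene with a log2 fold change over 1 in size among 67 further pathway genes. HES3, a repressor of the same family, had 24.8, 25.9 and 24.2 CPM with PEG and HS, against 40.2, 43.2 and 39.8 CPM in E8 alone. It fell by 0.72 on the log2 scale (SE 0.049, adjusted p = 2.73e-08). HES6, whose protein is known to counter HES1 and promote neuronal differentiation, had 30.6, 28.4 and 32.5 CPM with PEG and HS, against 23.8, 25.7 and 23.6 CPM in E8 alone. It rose (log2 fold change 0.33, SE 0.057, adjusted p = 0.000615), as did HEY2 (28.0 ± 0.913 against 24.5 ± 0.498 CPM, log2 fold change 0.19, adjusted p = 0.00914). NRARP had 68.3 ± 1.81 CPM with PEG and HS, against 70.5 ± 2.22 CPM in E8 alone (log2 fold change -0.045, 95% interval -0.12 to 0.032, adjusted p = 0.412). HEYL, with 38 to 57 counts a library (log2 fold change -0.13, adjusted p = 0.709), and HES7, with 3 to 14 (log2 fold change 0.70, adjusted p = 0.357), were not called.

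**Figure D3:**
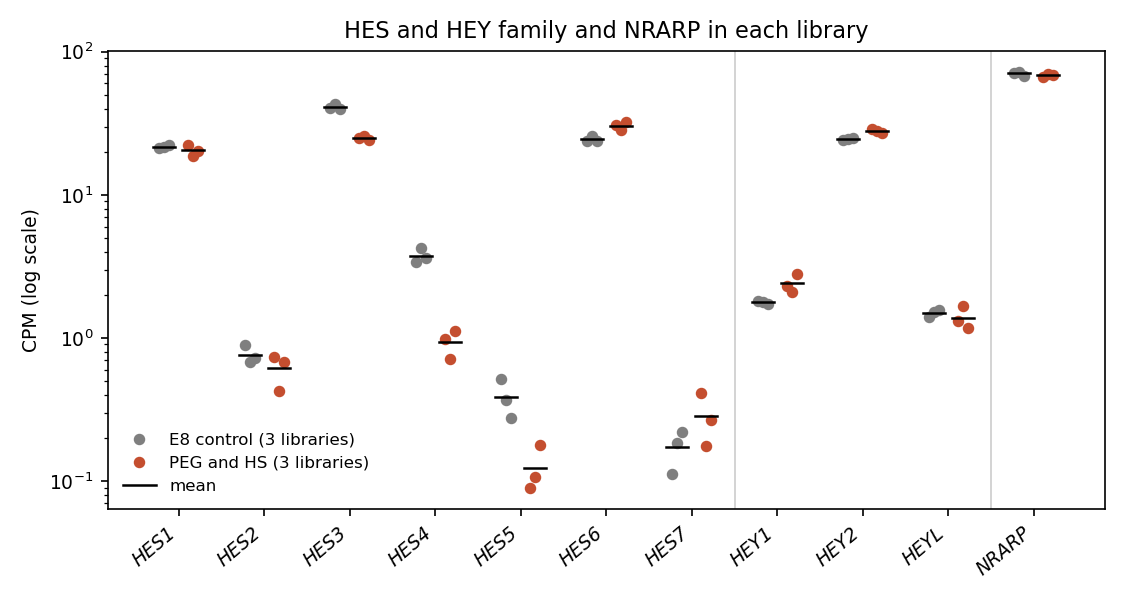
CPM of HES1 to HES7, HEY1, HEY2, HEYL and NRARP in each library, on a log axis, with E8 control in grey, PEG and HS in orange and means of 3 libraries as bars. HES3, HES4 and HES5 lie lower in PEG and HS, HES6, HEY1 and HEY2 lie higher, and HES1 and NRARP overlap.

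Levels of different genes can be compared only per length, so CPM was divided by the length of the gene's merged exons in kilobases. In E8 control the order from high to low was NOTCH3 (36.0 ± 0.978 CPM per kilobase, SD, n = 3), NOTCH1 (13.2 ± 0.397), HES1 (10.5 ± 0.279), JAG1 (7.86 ± 0.385), LFNG (7.35 ± 0.200), NOTCH2 (7.13 ± 0.190), DLL1 (5.16 ± 0.388), DLL3 (1.24 ± 0.277), HEY1 (0.323 ± 0.00914) and HES5 (0.293 ± 0.0922). JAG1 overlapped LFNG, LFNG overlapped NOTCH2, and HEY1 overlapped HES5, while the other neighbours did not overlap. In PEG and HS the order was the same except that NOTCH2 (6.71 ± 0.118) stood above JAG1 (5.76 ± 0.123) and LFNG (4.73 ± 0.229), and no neighbours overlapped. HES5, the lowest in both media, was at 0.0938 ± 0.0354 CPM per kilobase there.

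Within the 4 receptors, NOTCH3 held most of the per-length signal. Its share was 62.9%, 64.6% and 63.5% in the E8 control libraries and 59.5%, 60.2% and 60.0% in the PEG and HS libraries. NOTCH1 held 24.4%, 22.6% and 23.2% in E8 control and 27.6%, 27.1% and 26.8% in PEG and HS. The media did not overlap in either share, and the share of NOTCH1 was 3.75 percentage points higher in PEG and HS. The share of NOTCH2 was 12.5% ± 0.269 in PEG and HS and 12.6% ± 0.318 in E8 control, with overlap. Within the 5 canonical ligands, with DLL3 counted among them, JAG1 held 45.7% ± 0.477 in PEG and HS and 49.3% ± 0.885 in E8 control, and DLL1 30.4% to 31.5% and 31.6% to 33.2%. JAG2, whose level was not called, held 13.0% ± 0.922 and 10.4% ± 0.959. Its exons overlap ENSG00000257622 on the same strand. JAG2 shares 6.85% of its 31-base transcript words with other genes, most with that gene. Summed over the 5 ligands the per-length signal was 12.6 ± 0.392 CPM per kilobase in PEG and HS and 16.0 ± 0.985 in E8 control, and over the 4 receptors 53.6 ± 1.78 and 56.5 ± 0.749. With 3 libraries against 3, the two-sided exact permutation test cannot go below p = 0.1, which was reached for both sums and for 6 of the 9 shares (0.15 after adjustment over the 9).

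**Figure D4:**
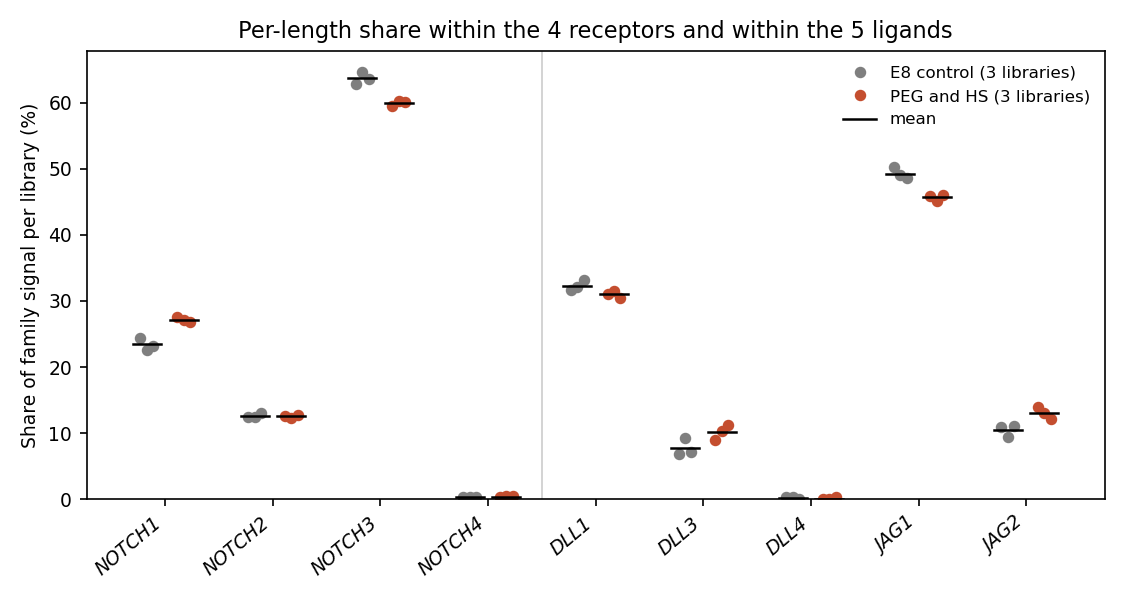
Share in percent of the per-length signal that each gene held among the 4 Notch receptors (left of the grey line) and among the 5 canonical ligands (right), as 1 point per library, with E8 control in grey, PEG and HS in orange and means as bars. NOTCH3 and JAG1 lead in both media, and NOTCH1 lies higher and NOTCH3 lower in each PEG and HS library.

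Of 67 further pathway genes, listed from general knowledge, all were tested and 21 were called, 8 higher and 13 lower. That is 31.3%, near the 25.3% of all genes tested. The median log2 fold change was -0.033. Of the 8 genes of the nuclear complex 2 rose and 1 fell (37.5% called). RBPJ, the DNA-binding protein of the pathway, had 236, 233 and 238 CPM with PEG and HS, against 209, 205 and 209 CPM in E8 alone, with no overlap (log2 fold change 0.18, SE 0.026, adjusted p = 9.94e-05, edgeR). The coactivator MAML2 rose from 12.3 ± 0.531 to 16.7 ± 0.624 CPM (log2 fold change 0.44, adjusted p = 8.11e-05), whereas MAML1 was not called (-0.050, adjusted p = 0.295). The fall was in the coactivator CREBBP, named after its values were seen (log2 fold change -0.12, adjusted p = 0.00508). Of the 11 corepressor genes 6 were called (54.5%), 2 higher and 4 lower. The genes for Groucho proteins, which HES factors recruit, split evenly. TLE3 (log2 fold change -0.31, adjusted p = 1.46e-05) and TLE4 (-0.26, adjusted p = 9.94e-05) fell, while TLE1 (0.24, adjusted p = 2.94e-05) and TLE2 (0.24, adjusted p = 0.0376), named after their values were seen, rose. TLE2 was not called by DESeq2 (adjusted p = 0.133) or without PEG and HS replicate 1 or 2 or E8 control replicate 2 or 3 (0.0577 to 0.164).

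Proteins that glycosylate, cut and remove the receptor made up 3 further groups. The called share was 10% of the glycosyltransferase genes, 22.2% of the cleavage genes and 26.7% of the turnover genes. Over all genes tested it was 25.3%. Among the cleavage genes PSENEN, a subunit of gamma-secretase, fell (log2 fold change -0.15, adjusted p = 0.0368, edgeR). PSENEN lost its call in DESeq2 and without any 1 library other than E8 control replicate 3. It also shares 21.5% of its 31-base transcript words with other genes, most with ENSG00000188223, which overlaps it on the same strand. The protease ADAM10 stood at 148 ± 2.97 CPM with PEG and HS, against 149.5 ± 4.47 CPM in E8 alone. Of the 10 glycosyltransferase genes beside LFNG, only EOGT was called, at 15.5 ± 0.592 against 12.3 ± 0.854 CPM (log2 fold change 0.33, adjusted p = 0.00187). Of the 15 genes of ligand endocytosis and receptor turnover 1 rose, DTX2 (log2 fold change 0.28, adjusted p = 0.000197), and 3 fell, among them NUMBL (-0.17, adjusted p = 0.0213, and 0.0579 in DESeq2), while NUMB and MIB1 were not called. NUMBL also lost its call without PEG and HS replicate 1 or 3 or E8 control replicate 3. DTX2 shares 33.7% of its 31-base transcript words with other genes, most with DTX2P1-UPK3BP1-PMS2P11. Among the non-canonical ligands DLK1 fell by 0.91 on the log2 scale (adjusted p = 0.000180), from 12.3 ± 2.99 CPM in E8 control to 6.56 ± 0.223 CPM with PEG and HS.

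**Figure D5:**
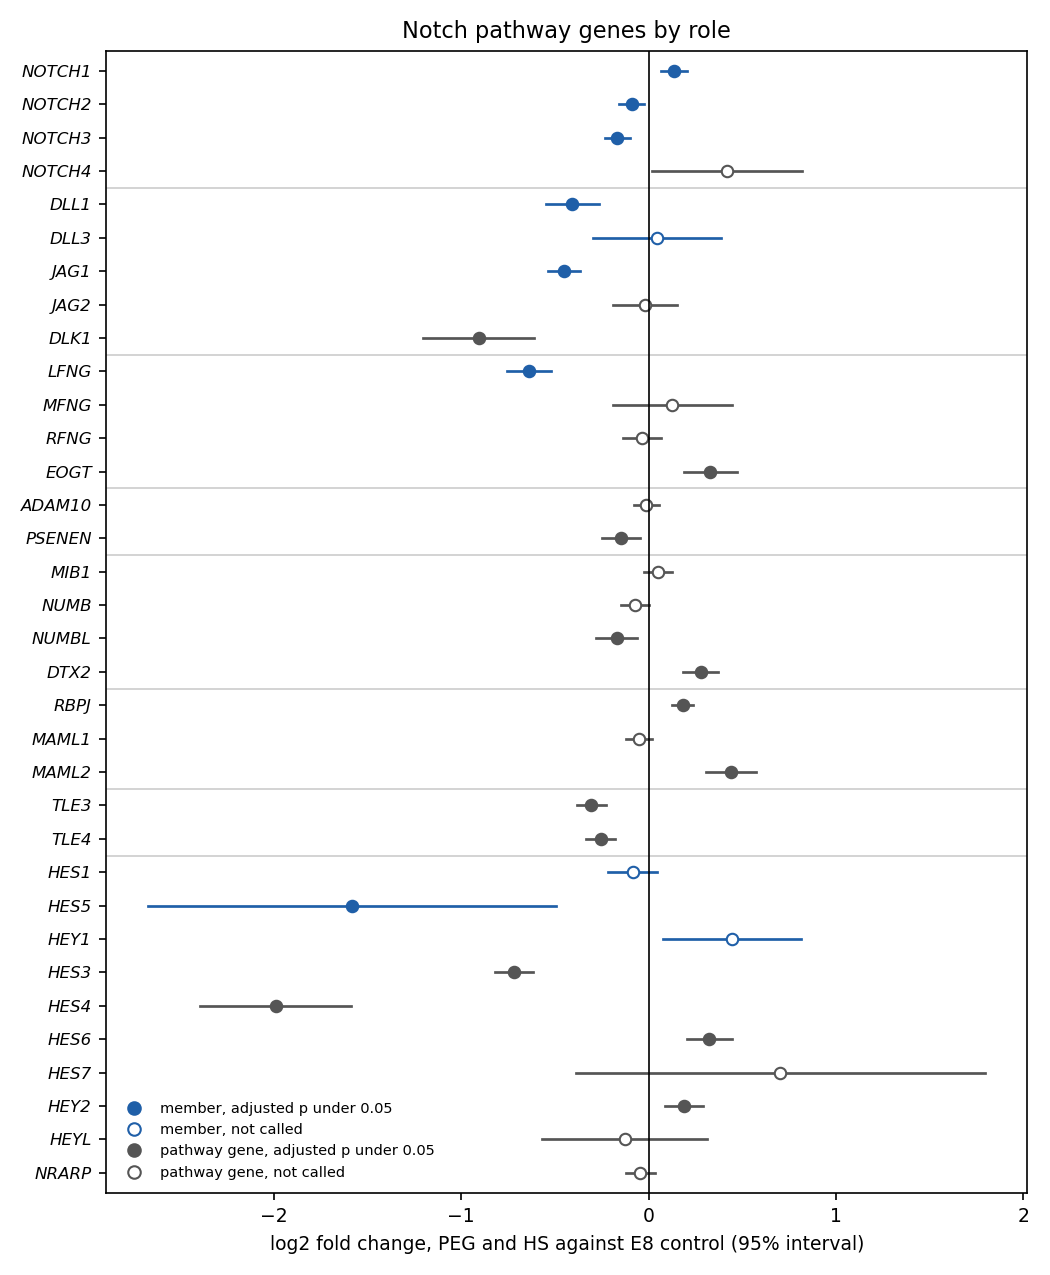
Log2 fold change of PEG and HS against E8 control with its 95% interval for the 10 Notch genes (blue) and named pathway genes (grey), grouped from top to bottom as receptors, ligands, glycosyltransferases, cleavage, turnover, nuclear complex, corepressors and the HES and HEY family with NRARP. Filled points have an adjusted p under 0.05, and DLL4 is left out because of its few counts. HES4 lies lowest at -1.99, and LFNG, JAG1 and DLL1 lie between -0.64 and -0.41.

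Markers of the labelled and of other cell types were read in the same libraries. Over all genes tested 25.3% were called, 12.2% higher and 13.1% lower. Of the markers tested, 25% were called in neuron and 33.3% in mesoderm, near that share. The called share was 50% in neural crest, 57.1% in trophectoderm and amnion and 62.5% in endothelium. It was 70% in neural progenitor, 80% in pluripotent stem cell and 0% in endoderm. The lists were chosen with earlier results known, so these shares do not test them. All 10 pluripotent stem cell markers lay over 1 CPM in both media, with 4 called higher and 4 lower. Their sum was 9464 to 9663 CPM with PEG and HS, against 9809 to 9955 CPM in E8 alone. POU5F1 rose (means of 1921 CPM with PEG and HS and 1635 CPM in E8 alone), as did NANOG (185 and 126 CPM). DPPA4 (1154 and 937 CPM) and ZFP42 (209 and 195 CPM) rose too. PODXL (1403 and 1868 CPM), LIN28A (1346 and 1658 CPM), SOX2 (273 and 412 CPM) and SALL4 (262 and 311 CPM) fell. Of 10 neural progenitor markers, which include HES5, 7 fell and 0 rose, and their sum was 561 to 600 CPM with PEG and HS, against 734 to 765 CPM in E8 alone, most of it NES. SOX1 in that list had a mean of 1.32 CPM with PEG and HS, against 4.29 CPM in E8 alone. Of 10 neuronal markers 8 were tested and 2 fell (NEUROG1 and STMN2), with sums of 242.95 to 255.72 CPM with PEG and HS, against 250.83 to 263.78 CPM in E8 alone, most of it TUBB3. The proneural genes NEUROG1 and NEUROG2, known regulators of Delta ligands, lay under 1 CPM in both media. NEUROG1 was 1 of the 2 that fell, with 2, 1 and 4 counts with PEG and HS, against 11, 17 and 14 counts in E8 alone (log2 fold change -2.53, adjusted p = 0.00272, edgeR). Of 8 markers of trophectoderm and amnion 7 were tested and 4 fell, with sums of 15.5 to 17.3 CPM with PEG and HS, against 26.8 to 28.6 CPM in E8 alone, and CDX2 and GATA3 lay under 1 CPM. In neural crest (8 markers) 2 rose and 2 fell, with sums of 114 to 116 and 104 to 109 CPM. Most of that sum came from the 2 that rose, FOXD3 (means of 51.9 CPM with PEG and HS and 41.6 CPM in E8 alone) and ETS1 (55.3 and 49.6 CPM). TFAP2A (0.603 and 6.00 CPM) and SOX10 (2.56 and 3.54 CPM) fell. In endothelium (8 markers) 3 rose and 2 fell, with sums of 79.5 to 80.6 and 69.5 to 73.0 CPM, while PECAM1 and CDH5 lay under 1 CPM. Most of the endothelial sum was KDR (59.8 and 52.4 CPM), which rose with ERG and TIE1, while TEK and VWF fell. Of 7 mesoderm markers 6 were tested and 2 fell (TBX6 and HAND1). The mesoderm sums were 5.47 to 5.66 and 6.19 to 7.40 CPM, with MSGN1 at 0. HAND1 had 1, 0 and 0 counts with PEG and HS, against 6, 7 and 2 counts in E8 alone. It is on both lists and is also 1 of the 4 trophectoderm and amnion markers that fell. MIXL1 lay higher in every PEG and HS library but was not called (adjusted p = 0.122, edgeR). Of 6 endoderm markers 4 were tested and 0 called by edgeR (1 at an unadjusted p under 0.05). The endoderm sums were 3.47 to 4.03 and 4.71 to 5.19 CPM. Of these sums, those of neural crest and endothelium were higher with PEG and HS, that of neurons overlapped between media, and the others were lower, beside the falls in LFNG, DLL1, JAG1 and HES5. Their part in those results was not tested.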

How the data were processed

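RNA-seq was read from 6 libraries of NCRM-1 aggregates, 3 per medium, grouped by the treatment named in the labels. The authors deposited unnormalized whole-number read counts, 1 file per library. Per the methods and the submitters' processing notes, reads of stranded poly(A) libraries were trimmed with Trim Galore 0.6.7 and mapped to GRCh38 with STAR 2.6.1. The counting tool and annotation release are not given in the sources used here, so genes with near-identical copies are uncertain. Symbols, coordinates and exon lengths come from GENCODE 44, which held 19916 of the 19977 identifiers.

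Genes with at least 10 counts in total were scaled by TMM (factors 0.994 to 1.006) and fitted with edgeR 4.0.16 in R 4.3.3 (glmQLFit, glmQLFTest, no covariate), with adjustment over the 16505 genes tested. SE was taken as the size of the log2 fold change divided by the root of F, and intervals use the t quantile of the same fit and are not adjusted. Log2 CPM for profile distances used a prior count of 2. The alternatives were DESeq2 1.42.0, limma-voom 3.58.1, other scalings, filters and thresholds, a replicate block, each library left out and other gene lengths. The scripts were tested on simulated data. Replicate pairs were compared with a chi-square test of their counts, which per degree of freedom came to 2.58 to 3.52, above sampling noise, and all were kept.

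The 10 genes and the lists were chosen with earlier results of these data known. Named were the 10 genes, 17 pathway genes set by name, the up to 2 called genes with the largest change per role at a mean of at least 1 CPM in the higher medium, and the 5 genes closest to the called gene of the 10 with the largest change among those that reached 1 CPM in every higher-medium library. SOX1, NES and the other markers named, and the partial copies of NOTCH2, were chosen after their values were seen. A few genes under this rule are not reported here.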

Additional observations from a re-analysis of the deposited data

How the results depend on the processing

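Over the 10 genes, 134 of 149 values under other tests, scalings, filters, blocks and left-out libraries kept their direction and side of the threshold, 12 lost the call (NOTCH2 and HES5) and 3 reversed (DLL3). Left-out libraries moved the log2 fold change of DLL3 between -0.072 and 0.23, of JAG2 between -0.070 and 0.053 and of ADAM10 between -0.027 and 0.015, none of them called. DESeq2 called 5 of the 10 genes and gave HES5 no adjusted p. The filterByExpr filter of edgeR left HES5 out before testing, and 6 of the 10 genes were called there. HES5 therefore has 13 of these values. The count of called genes among the 10 was 5 to 7 in all other settings but those against a limit of size. Tested against a 1.5-fold change, 0 of the 10 genes (0 higher, 0 lower), 1 further pathway gene (0 higher, 1 lower) and 264 of all genes (30 higher, 234 lower) were called. With a log2 fold change over 1, these were 1 (0 higher, 1 lower), 1 (0 higher, 1 lower) and 334 (40 higher, 294 lower). At an adjusted p under 0.01, 2601 of all genes were called, 1167 higher and 1434 lower. The longest transcript as length moved 2 of the 10 genes in the order in E8 control, LFNG and NOTCH2, which overlapped, and 0 in PEG and HS. With that length JAG1 in E8 control stood at 12.3 CPM per kilobase, against 7.86 with merged exons. DLL1 stood at 5.22 against 5.16, NOTCH2 at 10.5 against 7.13 and NOTCH3 at 39.0 against 36.0. The sizes of the receptor and ligand shares and sums therefore depend on the length used. Same-numbered libraries did not deviate together (r from -0.015 to 0.060), and with the number as a replicate block 6 of the 10 genes and 4444 of all genes were called, with HES5 at an adjusted p of 0.0533. HES5, DLL4 and HES7 are limited by depth, with at most 14 counts in any library.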
